A study of Homo sapiens with 9 samples.

Results

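Amino acid transporters carry amino acids, and in some cases related small molecules, across the plasma membrane and the lysosomal membrane. The genes described here were chosen by name, as every gene of the SLC1A, SLC3A, SLC6A, SLC7A, SLC36A, SLC38A and SLC43A families in the table, leaving out 1 SLC7A gene. The rule found 58 genes of 27671 and used no measured value, but it was chosen with earlier results of these data known. The study compared RNA from A498 cells, a human clear cell renal cell carcinoma (ccRCC) line, that carried a control hairpin (shControl), a hairpin against BMAL1 (shBMAL1) or a hairpin against ARNT (shARNT). Each group had 3 libraries that the labels call biological replicates, so 9 in all, and p-values measure the spread between these replicates. All cells were infected with lentivirus made from pLKO.1 vectors, selected with puromycin and kept in puromycin and serum, and the labels list no drug or oxygen treatment. Each depletion rests on 1 hairpin in 1 cell line, so an effect of the hairpin sequence other than on its target cannot be told apart from the depletion. A498 cells carry defective VHL, the ubiquitin ligase subunit that marks HIF2α for degradation. ARNT is the classic partner of HIF2α and BMAL1 that of CLOCK, and the comparison asks how the transporter genes differ when either bHLH-PAS factor is depleted.

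The families differ in mechanism. SLC3A1 and SLC3A2 encode heavy chains that bring SLC7 light chains to the membrane, and a light chain such as SLC7A5 exchanges an internal amino acid for an external one. SLC1 genes encode sodium-driven glutamate transporters and the neutral exchangers SLC1A4 and SLC1A5. SLC6 proteins use sodium and chloride to take up amino acids, amines and osmolytes, SLC38 proteins carry glutamine and other neutral amino acids with sodium, SLC36 proteins are driven by protons, and SLC43 holds facilitative carriers of large neutral amino acids. Several members sit in lysosomes, where SLC38A9 senses arginine for mTORC1. In kidney and its tumors such transporters are known for reabsorption in the tubule and for supplying glutamine and essential amino acids.

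The hairpins target factors that bind short DNA words, and these words, with that of the amino acid response factor ATF4, were searched on both strands in RefSeq promoter windows of the GRCh38.p14 assembly, from 250 bases before to 50 bases after each start. The words were ACGTG or GCGTG, the core of the site read by HIF with ARNT, CACGTG, the E-box read by BMAL1 with CLOCK, which also holds ACGTG, TGATGNAA, read by ATF4, and TCACGTGA, a longer form of the E-box. Of the 33 members with enough counts to be tested, 25 had a window and together had 46 windows. ACGTG or GCGTG was in 63% of these windows and in 48.4% of all 35116 windows. CACGTG was in 19.6% against 7.26%, TGATGNAA in 13.0% against 3.62% and TCACGTGA in 2.17% against 0.98%. These shares are a description, several windows belong to the same gene, and a match does not show binding. The members' windows come from tested genes alone, whereas the set of all windows was not limited to genes with counts here.

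Upstream stretches of 250 bases are printed for 2 genes, chosen after their values were seen because they differ in pattern: SLC7A5 had less RNA in both depletions, whereas SLC1A1 had less in shARNT and more in shBMAL1. Capitals mark the matches. The SLC7A5 stretch, chr16:87869508-87869757 on the minus strand of GRCh38.p14, held CACGTG 130 bases before the start, and the SLC1A1 stretch, chr9:4490218-4490467 on the plus strand, held 4 matches to ACGTG or GCGTG and no CACGTG.
SLC7A5: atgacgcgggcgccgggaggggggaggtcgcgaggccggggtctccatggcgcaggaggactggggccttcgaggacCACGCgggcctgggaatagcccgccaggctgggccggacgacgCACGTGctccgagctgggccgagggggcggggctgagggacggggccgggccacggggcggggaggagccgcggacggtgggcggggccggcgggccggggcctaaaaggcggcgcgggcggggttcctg
SLC1A1: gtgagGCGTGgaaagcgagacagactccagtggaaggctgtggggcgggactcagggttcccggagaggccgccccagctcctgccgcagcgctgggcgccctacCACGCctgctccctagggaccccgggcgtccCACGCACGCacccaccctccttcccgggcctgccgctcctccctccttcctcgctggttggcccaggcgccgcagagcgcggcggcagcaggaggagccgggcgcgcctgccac

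CACGTG was found in windows of 9 tested members. SLC7A5, SLC7A7, SLC7A8, SLC36A1, SLC38A7 and SLC1A5 were called lower in shBMAL1, SLC43A1 was called higher, and SLC6A16 and SLC38A5 were not called. Over all genes tested 31.5% were called lower and 31.9% higher there, and 17 of the 33 tested members were called lower. A link between the word and the calls was not tested. CACGTG was in 1 of 3 windows for SLC7A7 and SLC1A5, 1 of 4 for SLC7A8 and 1 of 2 for SLC36A1, SLC38A7 and SLC43A1. Runs of 30 bases show it, in capitals, for members of each kind, chosen after their values were seen. SLC7A7 and SLC7A8 are light chains that were lower in both depletions, and SLC36A1, with 1 run ahead of and 1 across its start, was lower in shBMAL1 and higher in shARNT. SLC43A1 was higher in both depletions, and SLC6A16 was not called in shBMAL1 against shControl. The runs lay at chr14:22816079-22816108 on the minus strand, chr14:23154505-23154534 on the minus strand, chr5:151447548-151447577 and chr5:151447583-151447612 on the plus strand, chr11:57515797-57515826 on the minus strand and chr19:49325313-49325342 on the minus strand of GRCh38.p14, in the order printed.
SLC7A7: agaatgaaaaggCACGTGggtctggtgggg
SLC7A8: cacaattagaaaCACGTGctcagttccttc
SLC36A1, upstream run: cgctcaagggagCACGTGacctcggcctct
SLC36A1, run across the start: gggcggtgggatCACGTGatgaggtccgga
SLC43A1: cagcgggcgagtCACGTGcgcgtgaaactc
SLC6A16: agaggatgtgcaCACGTGcgtgcgtgtggg

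The promoter table had no entry for SLC6A6, SLC3A1, SLC38A3, SLC6A3, SLC7A2, SLC43A3, SLC6A12 or SLC7A4.

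The libraries held 35269857 to 36099083 counts each. ARNT fell from 50.5 ± 2.24 CPM (counts scaled to library size, mean ± SD, n = 3) in shControl to 9.46 ± 0.433 in shARNT, a log2 fold change of -2.41 (adjusted p = 1.35e-17, SE 0.067) in edgeR's quasi-likelihood test. BMAL1, listed as ARNTL, fell from 16.3 ± 0.395 to 5.02 ± 0.789 CPM in shBMAL1, a log2 fold change of -1.70 (adjusted p = 1.94e-11, SE 0.10). ARNT itself was also called lower in shBMAL1, at 32.3 CPM (-0.65 on the log2 scale, adjusted p = 1.55e-08). EPAS1, which encodes HIF2α, was at 345 CPM in shControl, 233 in shBMAL1 and 74.2 in shARNT. It was called lower in shBMAL1 (-0.57, adjusted p = 1.54e-08) and in shARNT (-2.22, adjusted p = 2.94e-18). BMAL1 was higher in shARNT, at 23.9 CPM (0.55, adjusted p = 8.29e-06). Of 10 renal epithelial markers 9 were tested, and PAX8, KRT8 and KRT18 were present, whereas LRP2 had no count in any library. The markers' summed level lay between 2101 and 2132 CPM in shControl, between 1752 and 1849 in shBMAL1 and between 1453 and 1561 in shARNT, and its part in the results was not tested. KRT8 and KRT18, at 1099 and 566 CPM in shControl, made up most of this sum, and single markers differed: PAX8 went from 35.98 CPM in shControl to 100.3 in shARNT, CDH16 from 7.60 to 22.3 in shBMAL1, and CA9 from 76.5 to 1.06 in shARNT. The 4 leukocyte and 3 endothelial markers were near 0, with summed levels of at most 0.559 and 0.323 CPM. Of 4 fibroblast markers only COL1A1 was tested, at 237, 35.7 and 45.4 CPM, while LUM had no count and DCN and PDGFRA stayed under 0.25 CPM in the group means. The library of shControl replicate 1 stood apart, with a chi-square statistic per gene of 18.1 and 17 against the other shControl libraries, where the other pairs within a group gave 4.29 to 9.94. Without it no call of the 33 tested members changed except SLC38A11 in shBMAL1 (0.92, adjusted p = 0.116). The labels give no batch or date. Bulk RNA cannot tell fewer cells of a kind from less RNA per cell.

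Summed over all 58 genes, transporter RNA was 2519 ± 19.0 CPM in shControl, 2051 ± 61.7 in shBMAL1 and 1661 ± 74.6 in shARNT (mean ± SD, n = 3). The shControl libraries were at 2535, 2524 and 2498 CPM, shBMAL1 at 2072, 1981 and 2099, and shARNT at 1598, 1643 and 1744, and no group overlapped another. The SLC6 family held the largest share of this in shControl, 878 ± 24.9 CPM, of which taurine transporter SLC6A6 held 60.9%. SLC6 was at 846 ± 32.8 CPM in shBMAL1, with libraries that overlapped those of shControl, and at 376 ± 14.9 CPM in shARNT. The SLC7 family went from 569 ± 23.0 CPM to 291 ± 16.7 in shBMAL1 and 268 ± 17.7 in shARNT, and SLC7A5 held 63.1%, 54.8% and 43.4% of it. SLC43 was higher in both depletions, 10.7 ± 0.73 CPM in shControl against 17.4 ± 1.49 and 50.3 ± 1.69. SLC3 was at 329.6 ± 5.21, 270.1 ± 4.48 and 324 ± 8.52 CPM in shControl, shBMAL1 and shARNT, SLC38 at 410.4 ± 3.07, 346 ± 4.88 and 364 ± 11.1, SLC1 at 292 ± 5.93, 257 ± 12.5 and 248 ± 22.2, and SLC36 at 29.2 ± 2.16, 23.6 ± 0.284 and 30.2 ± 1.75. With 3 libraries a group, an exact permutation test of a single sum cannot give a two-sided p below 0.1, so the sums are given as levels.

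**Figure D1:**
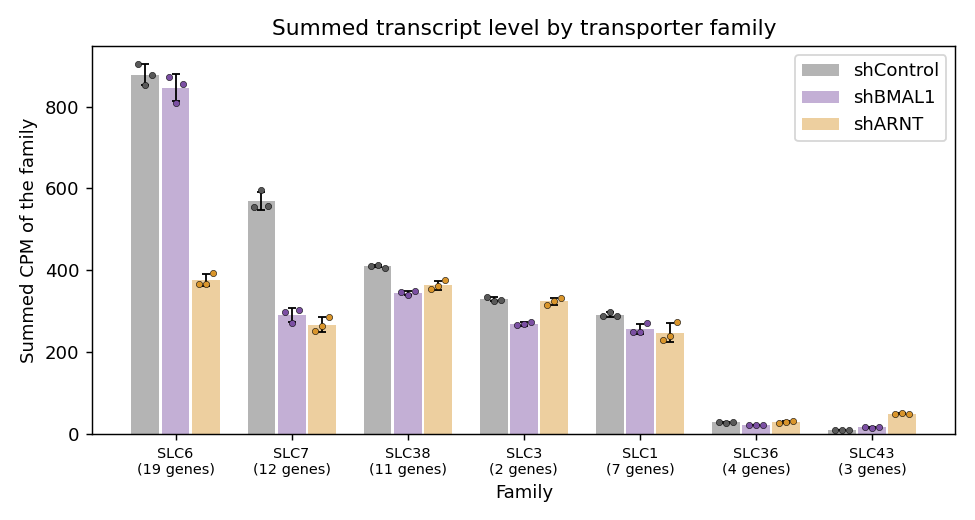
Summed CPM (y axis) of the genes of each transporter family (x axis) in shControl, shBMAL1 and shARNT; bars are means, error bars SD and points the 3 libraries of a group. SLC6 was at 878 CPM in shControl and 376 in shARNT, SLC7 was at 569 CPM in shControl and below 305 in every depleted library, and SLC43 was highest in shARNT.

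Gene by gene, 33 of the 58 members passed the filter on low counts. In shARNT against shControl, 25 of the 33 were called at an adjusted p under 0.1, 7 higher and 18 lower, beside 81.8% of all 15551 genes tested (40.5% higher, 41.3% lower), so the share called was near the background. The median log2 fold change of the tested members was -0.59, beside -0.01 over all genes. In shBMAL1 against shControl 28 of the 33 were called, 11 higher and 17 lower, beside 63.4% of all genes (31.9% higher, 31.5% lower), with a median of -0.24. In shARNT directly against shBMAL1 24 of the 33 were called, 11 higher and 13 lower, beside 81.2% of all genes (40.1% higher, 41.1% lower), with a median of -0.06. A change of at least 1 on the log2 scale among calls was seen in 2 members upward and 12 downward in shARNT, beside 12.4% and 19.2% of all genes, and in 2 upward and 7 downward in shBMAL1, beside 4.73% and 5.52%. The libraries of the compared groups did not overlap for 26 members with shARNT, 26 with shBMAL1 and 22 between the depletions, beside 79.8%, 62.2% and 79.6% of all genes. Some tested members reached the filter's minimum in libraries of 1 group alone, so these counts include genes that had to differ. They were SLC6A3, SLC6A12, SLC7A4 and SLC38A3 in shControl and SLC43A3 in shBMAL1. SLC38A11 reached it in all libraries of shBMAL1 alone and SLC38A5 in all of shARNT alone. Both also reached it in part of other groups, so the filter did not force a difference. Scaling by library size alone, in place of TMM factors, put the median of all genes at 0.23 in shARNT against shControl, and the split of the members' calls there became 11 higher and 18 lower.

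**Figure D2:**
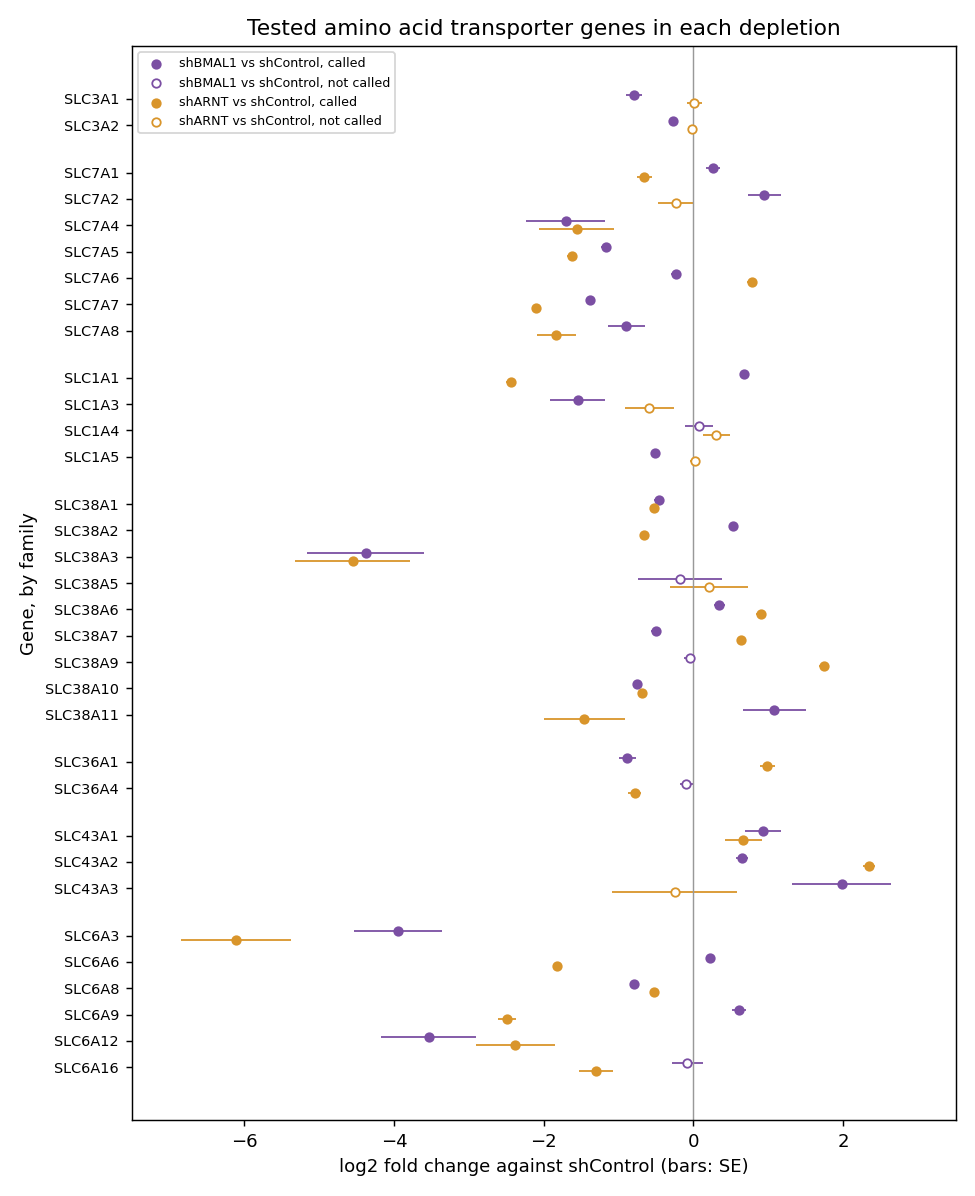
Log2 fold change against shControl (x axis) of the 33 tested members (y axis, grouped by family) in shBMAL1 (purple) and shARNT (orange); bars are SE, filled points were called at an adjusted p under 0.1 and open points were not. All 6 tested SLC6 genes lie left of 0 in shARNT, and both heavy chains lie near 0 in shARNT. The points below -3 (SLC38A3, SLC6A3 and SLC6A12) rest on few counts in the depleted cells, and these genes passed the filter through shControl alone.

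The heavy chain SLC3A2 (CD98), the most abundant member per transcript length in each group, was lower in shBMAL1 and was not called in shARNT, where the light chains SLC7A5 and SLC7A7 fell. SLC3A2 was at 325, 315 and 318 CPM in shControl, 259, 263 and 269.8 in shBMAL1 and 304, 316 and 321 in shARNT. The shBMAL1 libraries lay below both other groups, which overlapped each other. The log2 fold change was -0.27 (adjusted p = 2.18e-06, SE 0.036) in shBMAL1 and -0.024 (adjusted p = 0.551, SE 0.036) in shARNT, and by library size alone the latter turned to 0.21 (adjusted p = 1.77e-05), close to the shift of all genes. The other heavy chain, SLC3A1 (rBAT), which pairs with SLC7A9 in the kidney tubule, was at 10.5, 10.2 and 10.5 CPM in shControl, 6.73, 6.33 and 4.97 in shBMAL1 and 10.9, 10.1 and 10.4 in shARNT. Only shBMAL1 stood below shControl, at -0.79 (adjusted p = 3.94e-06, SE 0.11), and shARNT differed from it by 0.80 (adjusted p = 1.18e-06, SE 0.11). SLC3A1 overlaps PREPL on the other strand, which was at 61.2 CPM in shControl and 101 in shARNT, and the use of strand in counting was not stated.

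SLC7A5 (LAT1), the light chain that imports leucine and other large neutral amino acids in exchange for glutamine, was among the 5 highest members per length over all libraries. It was at 350.5, 383 and 344 CPM in shControl, 160.5, 145 and 174 in shBMAL1 and 106, 114 and 129 in shARNT. No library of either depletion reached the lowest of shControl, and the 2 depletions did not overlap. In edgeR, SLC7A5 had a log2 fold change of -1.17 (adjusted p = 6.63e-12, SE 0.065) for shBMAL1, -1.63 (adjusted p = 6.79e-15, SE 0.066) for shARNT and -0.46 (adjusted p = 2.51e-06, SE 0.066) between them. SLC7A5 lies at chr16:87863629-87903113 on the minus strand of GRCh37. It has near-identical pseudogene copies, and how reads that match both were handled was not stated.

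SLC7A7 (y+LAT1), which exports arginine and lysine from the basolateral side of the tubule in exchange for neutral amino acids and sodium, fell further. It was at 114.5, 119.6 and 121 CPM in shControl, 44.02, 46.04 and 46.6 in shBMAL1 and 25.9, 27.6 and 29.1 in shARNT, with the 3 groups wholly apart. Its change on the log2 scale was -1.38 (adjusted p = 1.65e-14, SE 0.052) for shBMAL1 and -2.10 (adjusted p = 3.36e-18, SE 0.053) for shARNT. SLC7A6 (y+LAT2), a paralog with the same kind of exchange, was at 59.8, 65.2 and 61.6 CPM in shControl, 57.3, 53.4 and 47.8 in shBMAL1 and 104, 106 and 110.1 in shARNT. It rose in shARNT, by 0.78 (adjusted p = 1.36e-10, SE 0.058), and was slightly lower in shBMAL1, at -0.24 (adjusted p = 0.002, SE 0.059). The order of the pair per length was therefore not the same in the groups: 56.8 CPM per kb for SLC7A7 and 9.94 for SLC7A6 in shControl, 21.9 and 8.44 in shBMAL1, and 13.2 and 17 in shARNT. SLC7A6 overlaps the exons of SLC7A6OS on the other strand, which was at 11.1 CPM in shControl and had a log2 fold change of 0.48 in shARNT.

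SLC7A8 (LAT2), another light chain for neutral amino acids, was rare, with 116, 138 and 106 counts in shControl, 68, 39 and 93 in shBMAL1 and 39, 50 and 32 in shARNT. The shControl libraries lay above all others, and the depletions overlapped each other. It fell by 0.89 on the log2 scale in shBMAL1 (adjusted p = 0.00372) and by 1.83 in shARNT (adjusted p = 2.14e-06), and leaving out any 1 library changed neither call. Light chain SLC7A9, the partner of SLC3A1, was not tested, with 9, 18 and 17 counts in shControl, 6, 5 and 5 in shBMAL1 and 5, 2 and 9 in shARNT. The other light chains, SLC7A10 and SLC7A13, had at most 2 counts in any library.

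**Figure D3:**
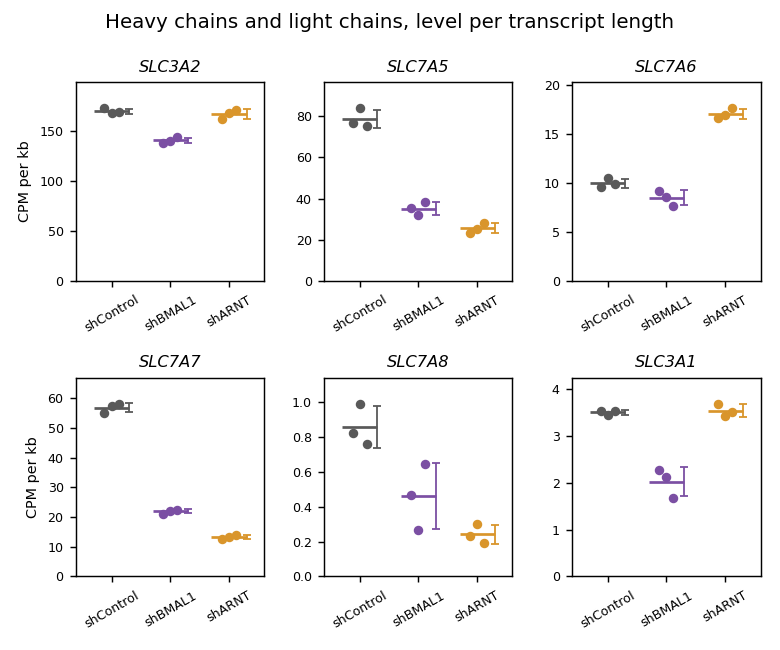
Level per transcript length (y axis, CPM per kb, from 0 and on its own scale for each gene) of the heavy chains SLC3A2 and SLC3A1 and the light chains SLC7A5, SLC7A6, SLC7A7 and SLC7A8 in the 3 groups (x axis); points are libraries, lines means and error bars SD. SLC7A5 and SLC7A7 lie below shControl in both depletions, SLC7A6 is highest in shARNT, where its mean was 106.5 CPM before division by length, and both heavy chains are lowest in shBMAL1.

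Of the cationic amino acid carriers of the SLC7 family, SLC7A1 fell in shARNT and SLC7A2 rose in shBMAL1, whereas SLC7A4 passed the filter through shControl alone and so had to be lower elsewhere. SLC7A1 (CAT-1), the general uptake route for arginine and lysine, had means of 23.9 CPM in shControl, 28.6 in shBMAL1 and 15.2 in shARNT. It fell in shARNT by 0.65 on the log2 scale (adjusted p = 3.7e-06). Its shBMAL1 call, at 0.26, had overlapping groups and was lost without shControl replicate 2, shBMAL1 replicate 1 or shBMAL1 replicate 3, with values near 0.20 (adjusted p of 0.11 to 0.121). SLC7A2 (CAT-2), an arginine carrier with 35, 42 and 46 counts in shControl, 90, 90 and 66 in shBMAL1 and 41, 43 and 41 in shARNT, was higher in every shBMAL1 library than in any other. Its log2 fold change was 0.95 (adjusted p = 0.001, SE 0.22) in shBMAL1, and shARNT lay below shBMAL1, with a difference of -1.19 (adjusted p = 5.89e-05, SE 0.22). SLC7A4, a relative of the cationic carriers, had 15, 15 and 15 counts in shControl, 2, 4 and 8 in shBMAL1 and 6, 9 and 3 in shARNT, so its shBMAL1 and shARNT counts were 30.1% (95% interval 15.2 to 55.8, exact for counting error only) and 33.4% (18.2 to 58.9) of shControl (adjusted p = 0.00937 and 0.00833).

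Among glutamate carriers SLC1A1 (EAAT3), which takes up glutamate, aspartate and cysteine, moved in opposite directions. It was at 60.1, 55.01 and 56.1 CPM in shControl, 91.5, 91.7 and 90.8 in shBMAL1 and 10.02, 11.7 and 9.95 in shARNT, and each group stood apart from the others. SLC1A1 changed by -2.44 (adjusted p = 6.47e-18, SE 0.064) on the log2 scale in shARNT and by 0.68 (adjusted p = 2.18e-09, SE 0.055) in shBMAL1, and the direct difference was -3.11 (adjusted p = 1.16e-19, SE 0.064). SLC1A1 lies at chr9:4490468-4587469 on the plus strand of GRCh37. SLC1A3 (EAAT1), the glial form of this carrier, was rare, with 37, 38 and 47 counts in shControl, 13, 7 and 23 in shBMAL1 and 31, 25 and 41 in shARNT. All shBMAL1 libraries were below shControl, at -1.54 (adjusted p = 0.00118, SE 0.36). Its shARNT value of -0.59 was not called (adjusted p = 0.105), although the groups did not overlap, and it became a call without shBMAL1 replicate 2 (adjusted p = 0.0773), shBMAL1 replicate 3 (0.0758) or shARNT replicate 3 (0.0639), with halved counts (0.0627) and with only the 6 libraries compared (0.0572). Its direct difference of 0.95 (adjusted p = 0.0261) was lost without shBMAL1 replicate 2 (0.63, adjusted p = 0.138) or shARNT replicate 3 (0.75, adjusted p = 0.113).

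SLC1A5 (ASCT2), the exchanger known for glutamine uptake in tumor cells, was at 80.3 CPM per kb in shControl, behind SLC3A2 at 169 and SLC6A6 at 82.2. It was at 225, 240.2 and 229 CPM in shControl, 155, 155 and 177.5 in shBMAL1 and 218, 225 and 259 in shARNT. The shBMAL1 libraries lay below the others and shARNT overlapped shControl. SLC1A5 fell by 0.51 in shBMAL1 (SE 0.06, adjusted p = 3.74e-07), whereas shARNT gave 0.017 (adjusted p = 0.795, SE 0.059), or 0.25 (adjusted p = 0.000383) by library size alone, and the direct difference was 0.53 (adjusted p = 8.39e-08, SE 0.059). The related SLC1A4 (ASCT1), at means of 2.27 to 2.80 CPM, was called in no comparison, and its values in shARNT and in the direct comparison passed the threshold without shARNT replicate 1 (0.44, adjusted p = 0.0415, and 0.37, adjusted p = 0.0838).

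The SLC38 family, with 9 of 11 genes tested, showed 3 higher and 5 lower calls in shARNT and 3 higher and 4 lower in shBMAL1. The share called was 88.9% in shARNT and 77.8% in shBMAL1, beside 81.8% and 63.4% of all genes, so in shARNT it was near the background. SLC38A2 (SNAT2), a sodium-coupled carrier whose gene is known to be induced by amino acid starvation, was at 82.8, 79.5 and 79.5 CPM in shControl, 118, 113 and 118 in shBMAL1 and 49.2, 49.1 and 55.4 in shARNT. The groups were wholly apart, shBMAL1 above and shARNT below shControl. The log2 fold changes were 0.53 (adjusted p = 1.97e-08, SE 0.05) and -0.65 (adjusted p = 3.23e-10, SE 0.051), and the direct difference was -1.18 (adjusted p = 1.87e-14, SE 0.051). SLC38A1 (SNAT1), which carries glutamine and other neutral amino acids, was lower in both depletions, with means of 90.5, 65.5 and 62.9 CPM in shControl, shBMAL1 and shARNT. Its fold changes were -0.47 in shBMAL1 and -0.53 in shARNT, and the difference between the depletions was not called. SLC38A10, the family's most abundant gene in shControl, was also lower in both, with 166, 98.8 and 103 CPM, at -0.75 and -0.68. Without shBMAL1 replicate 3, its direct difference became a call (0.09, adjusted p = 0.0816).

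SLC38A6 was higher in both depletions, with means of 15.9 CPM in shControl, 20.2 in shBMAL1 (0.35, adjusted p = 0.000503) and 29.7 in shARNT (0.90, adjusted p = 4.58e-10). It overlaps TRMT5 on the other strand, which was 0.33 higher in shARNT on the log2 scale. SLC38A3 (SNAT3), a glutamine carrier of the proximal tubule, had 15, 18 and 14 counts in shControl, 2, 0 and 0 in shBMAL1 and 1, 1 and 0 in shARNT. SLC38A3 passed the filter through shControl alone, so it had to be lower in both depletions. The depleted cells held almost none, 4.11% (95% interval 0.484 to 15.7, exact for counting error only) of shControl in shBMAL1 and 3.55% (0.418 to 13.6) in shARNT, both called in edgeR (adjusted p = 7.38e-05 and 1.94e-05). SLC38A11, which has no settled substrate, had 9, 16 and 10 counts in shControl, 32, 30 and 15 in shBMAL1 and 8, 3 and 4 in shARNT. It reached the filter's minimum in all shBMAL1 libraries and in part of shControl, but not in shARNT. It was lower in shARNT (-1.46, adjusted p = 0.0188), and its higher value in shBMAL1 (1.08, adjusted p = 0.0333) came from overlapping groups and was lost without shControl replicate 1 (0.92, adjusted p = 0.116), shControl replicate 3, shBMAL1 replicate 1 or shBMAL1 replicate 2. SLC38A5 was called in no comparison.

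SLC38A9, SLC38A7 and SLC36A1, which are known from lysosomes, were higher in shARNT. SLC38A9, the arginine sensor of the mTORC1 pathway, was at 15.6, 15.6 and 16.7 CPM in shControl, 16.6, 15.6 and 13.97 in shBMAL1 and 54.99, 53.4 and 52.2 in shARNT. The gene lies at chr5:54921673-55069022 on the minus strand of GRCh37. Every shARNT library lay far above the rest, and shBMAL1 overlapped shControl. The log2 fold change was 1.75 (adjusted p = 2.56e-15, SE 0.067) in shARNT and -0.051 (adjusted p = 0.571, SE 0.072) in shBMAL1, and the direct difference was 1.80 (adjusted p = 1.67e-15, SE 0.067). SLC38A7, which exports glutamine and asparagine from lysosomes, was at 40.97, 38.4 and 42.1 CPM in shControl, 28.4, 29.3 and 27.8 in shBMAL1 and 61.3, 60.6 and 67.2 in shARNT. SLC38A7 was higher in shARNT, at 0.64 (adjusted p = 2.19e-09, SE 0.057), and lower in shBMAL1, at -0.51 (adjusted p = 4.03e-07, SE 0.059). SLC36A1 (PAT1), a proton-coupled exporter of small neutral amino acids from lysosomes, was at 9.82, 9.39 and 9.08 CPM in shControl, 5.85, 4.99 and 4.50 in shBMAL1 and 17.4, 18.4 and 20.3 in shARNT. The 3 groups did not overlap, and the fold changes were 0.99 (adjusted p = 1.14e-08, SE 0.097) in shARNT and -0.88 (adjusted p = 8.6e-07, SE 0.11) in shBMAL1. Their direct differences were 1.14 and 1.87 (adjusted p = 2.57e-13 and 1.19e-12). SLC36A4 (PAT4), a proline and tryptophan carrier of the same family, went the other way in shARNT, from 19.8 to 11.5 CPM (-0.78, adjusted p = 8.98e-08), and its shBMAL1 value, -0.096, was called only without shControl replicate 2 (-0.18, adjusted p = 0.0876). SLC36A2 and SLC36A3 had at most 2 counts in any library.

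SLC43A2 (LAT4), a facilitative carrier that lets branched-chain amino acids, methionine and phenylalanine out of the cell, had the largest upward change of any tested member in shARNT. It was at 9.94, 10.1 and 8.60 CPM in shControl, 14.8, 13.7 and 16.3 in shBMAL1 and 47.5, 49.9 and 48.3 in shARNT. The groups were wholly apart. Against shControl it changed by 2.35 (adjusted p = 2.43e-16, SE 0.077) on the log2 scale in shARNT and 0.65 (adjusted p = 1.39e-06, SE 0.083) in shBMAL1, and the direct difference was 1.70 (adjusted p = 1.86e-14, SE 0.073). SLC43A2 lies at chr17:1472562-1532180 on the minus strand of GRCh37. Its paralog SLC43A1 (LAT3) was also higher in both, at means of 1.03, 1.96 and 1.63 CPM, by 0.93 (adjusted p = 0.00288) and 0.67 (adjusted p = 0.0185). SLC43A3, which is known to carry purine nucleobases rather than amino acids, had 0, 3 and 9 counts in shControl, 14, 18 and 18 in shBMAL1 and 3, 8 and 1 in shARNT. It passed the filter through shBMAL1 alone, so it had to be higher there. Its shBMAL1 counts were 403% (95% interval 212 to 831, exact for counting error only) of shControl (adjusted p = 0.0144 in edgeR).

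**Figure D4:**
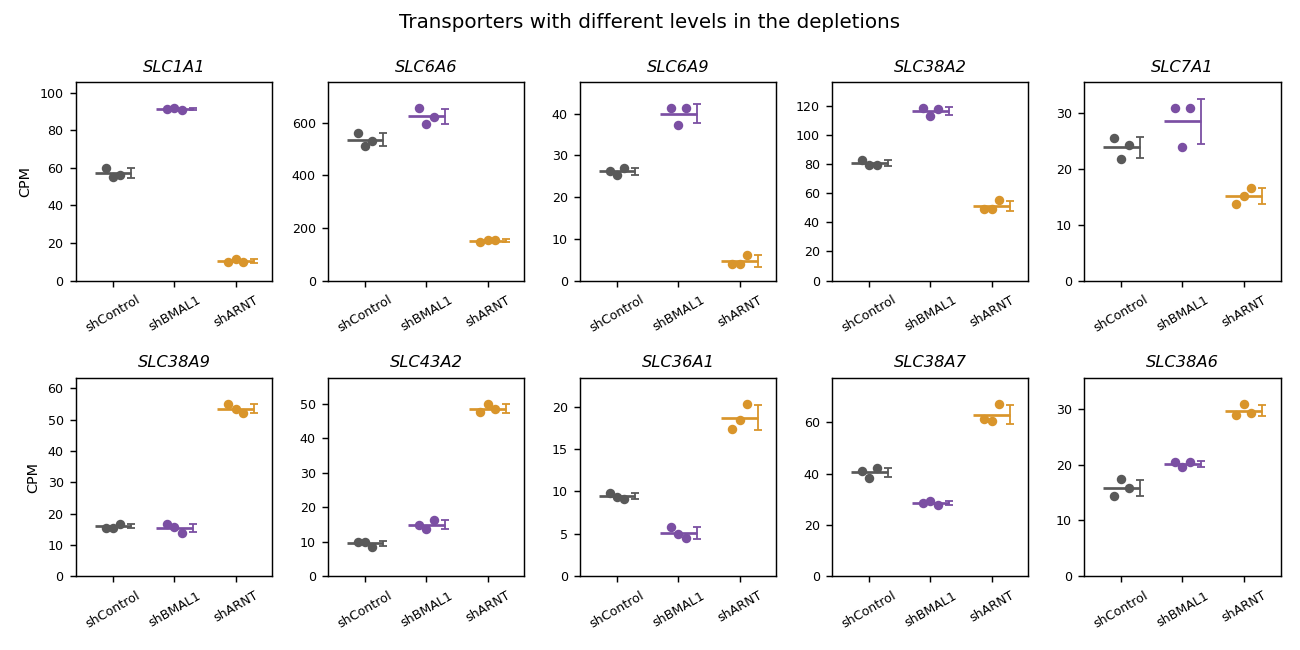
CPM (y axis, from 0 and on its own scale for each gene) in the 3 libraries of each group (x axis) for 10 transporter genes; lines are means and error bars SD. The upper row shows genes lowest in shARNT and highest in shBMAL1 (for SLC7A1 the shBMAL1 and shControl libraries overlap), and the lower row shows genes highest in shARNT, where SLC38A9 reached 53.5 CPM against 15.9 in shControl.

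All 6 tested SLC6 genes were called lower in shARNT, and in shBMAL1 2 were called higher and 3 lower. SLC6A3 and SLC6A12 passed the filter through shControl alone, so they had to be lower in both depletions. Over all genes tested 41.3% were called lower in shARNT, and 31.9% higher and 31.5% lower in shBMAL1. SLC6A6, the taurine transporter that also serves cell volume control, was at 82.2 CPM per kb in shControl and 95.8 in shBMAL1, behind SLC3A2 alone, and at 23.3 in shARNT, behind SLC3A2, SLC1A5, SLC6A8 and SLC7A5. It was at 561, 512 and 530.2 CPM in shControl, 654, 595 and 619 in shBMAL1 and 146, 154.5 and 155 in shARNT. The gene lies at chr3:14444076-14530857 on the plus strand of GRCh37. All shARNT libraries were far below the others, and shBMAL1 stood above shControl. The log2 fold change was -1.82 (adjusted p = 1.9e-18, SE 0.044) in shARNT and 0.22 (adjusted p = 0.000164, SE 0.043) in shBMAL1. SLC6A9 (GlyT1), which takes up glycine, was at 26.1, 25.4 and 27.1 CPM in shControl, 41.2, 37.3 and 41.3 in shBMAL1 and 3.91, 3.87 and 6.25 in shARNT, again apart in each group. Its fold changes were -2.48 (adjusted p = 1.01e-13, SE 0.12) and 0.61 (adjusted p = 2.31e-05, SE 0.098), and the direct differences were -2.04 for SLC6A6 and -3.09 for SLC6A9 (adjusted p = 3.43e-19 and 2.14e-15). SLC6A9 shares exon sequence with CCDC24 on the other strand, which fell by 0.86 in shARNT and by 0.49 in shBMAL1.

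SLC6A8, the creatine transporter, was lower in both depletions. It was at 312, 311 and 315.5 CPM in shControl, 175, 174 and 192 in shBMAL1 and 216, 207 and 230.5 in shARNT, and the groups did not overlap. Against shControl, the log2 changes were -0.79 (adjusted p = 1.02e-11, SE 0.045) in shBMAL1 and -0.52 (adjusted p = 1.5e-09, SE 0.045) in shARNT. SLC6A8 has a near-identical copy elsewhere in the genome and overlaps PNCK on the other strand, which fell by 1.39 and 2.32 on the log2 scale from a mean of 12.6 CPM. The orphan SLC6A16 had 66, 68 and 82 counts in shControl, 63, 66 and 82 in shBMAL1 and 40, 35 and 30 in shARNT, and its shARNT libraries lay below all others. Its log2 fold change in shARNT was -1.30 (adjusted p = 2.59e-05, SE 0.22) against shControl and -1.22 (adjusted p = 5.71e-05, SE 0.22) against shBMAL1.

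Dopamine transporter SLC6A3 and betaine transporter SLC6A12 were low in shControl and far lower in both depletions. SLC6A3 had 40, 51 and 48 counts in shControl, 0, 1 and 8 in shBMAL1 and 0, 0 and 2 in shARNT, so its counts were 6.26% (95% interval 2.80 to 12.2, exact for counting error only) of shControl in shBMAL1 and 1.20% (0.144 to 4.42) in shARNT. SLC6A12, an osmolyte carrier of the kidney medulla, had 11, 31 and 29 counts in shControl, 1, 2 and 3 in shBMAL1 and 2, 9 and 5 in shARNT, or 8.17% (2.90 to 18.7) and 18.8% (10.2 to 32.7). As both genes passed the filter through shControl alone, they had to be lower in both depletions. Both were called there, with adjusted p-values in edgeR of 8.21e-06 and 2.39e-07 for SLC6A3 and 8.07e-05 and 0.000395 for SLC6A12. The direct difference was not called for either, but it was called for SLC6A3 without shBMAL1 replicate 1 (-2.74, adjusted p = 0.0334), shBMAL1 replicate 2 (-2.57, adjusted p = 0.069) or shARNT replicate 3 (-4.68, adjusted p = 0.0341), and for SLC6A12 without shARNT replicate 1 (1.54, adjusted p = 0.0985).

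The 25 members that were not tested included 13 of the 19 SLC6 genes. No count in any library was found for 10 of the 25, and 20 were under 5 counts in every library, so their level was not detectable beyond a few reads at this depth. The highest count among them was 24, for the serotonin transporter SLC6A4, which had 6, 0 and 0 counts in shControl, 5, 7 and 0 in shBMAL1 and 10, 13 and 24 in shARNT. SLC38A4 (SNAT4), known mainly from liver, had 0, 0 and 0 counts in shControl, 5, 4 and 0 in shBMAL1 and 3, 5 and 4 in shARNT.

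Other carriers and partner proteins of amino acid transport were set beside the members from a list of 17 genes, 14 of them tested. In shARNT 10 were called higher and 2 lower, with a median log2 fold change of 0.38, and in shBMAL1 6 higher and 4 lower, with a median of 0.18. The counts stand beside 40.5% higher and 41.3% lower of all genes in shARNT and 31.9% and 31.5% in shBMAL1. The mitochondrial glutamate carrier SLC25A22 rose in shARNT, at 1.03 (adjusted p = 1.14e-11). SLC25A18 had a larger value there, 1.28, but its 6, 4 and 6 counts in shControl, 7, 7 and 5 in shBMAL1 and 18, 17 and 12 in shARNT passed the filter through shARNT alone, so it had to be higher there. SLC15A4, a lysosomal histidine and peptide carrier, fell there, at -1.15 (adjusted p = 4.22e-13). In shBMAL1 the mitochondrial aspartate-glutamate carrier SLC25A12 and the ornithine carrier SLC25A15 rose most, at 0.85 and 0.81 (adjusted p = 1.54e-10 and 9.64e-06). MFSD12, needed for cysteine import into lysosomes, fell, at -1.92 (adjusted p = 2.75e-15).

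A list of 23 genes of the amino acid response, the program driven by ATF4 when amino acids are short, was tested in full. In shARNT 7 were called higher and 12 lower (median -0.14), in shBMAL1 14 higher and 5 lower (median 0.23), and in the direct comparison 6 higher and 15 lower (median -0.43). The list's share of calls was 82.6% in each depletion and 91.3% between them, beside 81.8% in shARNT, 63.4% in shBMAL1 and 81.2% between them over all genes, so in shARNT it was about that of all genes. ATF4 RNA was higher in both, at 0.50 in shARNT and 0.23 in shBMAL1. In shARNT the transcription factor CEBPB and the leucine sensor SESN2 rose most (2.07 and 1.65) and the pseudokinase TRIB3 and mitochondrial PCK2 fell most (-2.89 and -1.69), with adjusted p-values of 2.69e-16, 1.25e-14, 3.59e-18 and 5.8e-13. In shBMAL1 the glutathione-degrading enzyme CHAC1 and folate enzyme MTHFD2 rose most (1.91 and 0.80) and ATF5 and serine synthesis enzyme PSAT1 fell most (-0.95 and -0.60), with adjusted p-values of 1.04e-08, 1.9e-10, 2.78e-07 and 2.08e-06. Both directions thus occurred among the called genes of each comparison.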

How the data were processed

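Stranded mRNA libraries of A498 cells were read in pairs on the BGISEQ-500 platform. The values deposited by the authors were expected counts of reads for each gene, not normalized, in which 0.05 stood for no reads. Per the study's methods the reads were aligned to GRCh37 with SeqMan NGen and counted with ArrayStar, whereas the labels' processing notes list hg38, STAR and DESeq2 without a role. Annotation release, strand use, multi-mapping and counting of mates were not stated. Rows with the same name were summed (45 names of 27716 rows, no member among them), and values were rounded. Gene positions and transcript lengths came from GENCODE v44 lifted to GRCh37, and promoter windows from RefSeq on GRCh38.p14.

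All 9 libraries entered 1 fit of edgeR 4.0.16 (R 4.3.3) with TMM factors, filterByExpr (15551 genes) and the quasi-likelihood F-test, checked on simulated data. The simulated data held changes in shARNT alone and in far fewer genes than were called here, so the check does not cover changes this widespread. A gene was called where its p, adjusted by Benjamini-Hochberg over all genes tested, was under 0.1, in 3 contrasts. CPM values were scaled by TMM, and SE was the log2 fold change divided by the root of F. Alternatives were RLE factors, library size alone, DESeq2 1.42.0, other filters and thresholds, 6 libraries only, halved counts, a replicate block and leaving out each library. Values in every library are given for tested members called with an absolute log2 fold change of at least 1, both heavy chains and the 5 highest members per length over all libraries, and the 2 largest rises and falls are named from each list, apart from genes that are not reported here. The members and lists were chosen with earlier results of these data known.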

Additional observations from a re-analysis of the deposited data

How the results depend on the processing

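Of 99 values of named members, all kept their direction and their side of the threshold with RLE factors and with an adjusted p under 0.05, and 98 did so with DESeq2, with no filter on low counts and with the replicate block. Scaling by library size alone gave 11 members higher in shARNT against shControl in place of 7. The same scaling raised the share of higher genes among all calls from 49.6% to 60.5% there, and it turned SLC3A2 in shARNT to 0.21 (adjusted p = 1.77e-05) and SLC38A1 in shARNT against shBMAL1 to 0.13 (adjusted p = 0.0482). A test against a minimum fold change of 1.5 left 1 member higher and 11 lower in shBMAL1 against shControl, in place of 11 and 17, and 6 higher in shARNT against shBMAL1, in place of 11, as its construction requires larger changes. Leaving out each library in turn gave 7 to 9 higher and 18 to 20 lower members in shARNT against shControl, 9 to 11 and 17 to 18 in shBMAL1 against shControl, and 10 to 14 and 13 to 14 between the depletions. ARNT in shARNT ranged from -2.45 to -2.39 and ARNTL in shBMAL1 from -1.77 to -1.57. With DESeq2, SLC38A11 in shBMAL1 was at the threshold (1.08, adjusted p = 0.1). Deviations of same-numbered libraries correlated at -0.0409 to 0.0752 across genes, and those of other pairs between groups at -0.0775 to 0.0939. Same-numbered libraries thus shared no clear deviation, which cannot show whether they were prepared together. With the replicate block, 7 higher and 19 lower members were called in shARNT, 11 and 17 in shBMAL1 and 11 and 13 between the depletions, and the only changed call was SLC1A3 in shARNT (-0.61, adjusted p = 0.0845). Members under about 20 counts a library are limited by depth.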
